A study of Mus musculus with 8 samples.

Results

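The genes described here are 10 genes of blood vessel walls, 9 known from endothelial cells (Flt1, Kdr, Tek, Tie1, Ptprb, Pecam1, Slco1a4, Ly6c1 and Vwf) and 1 from pericytes (Pdgfrb). They were taken by gene symbol from the table of TRAP and INPUT values. Of the 10, 8 have a row among the 14353 genes used, and Tek and Tie1 were not analysed here. All 8 genes with a row passed the filter on low values, which kept 14249 genes over 1 CPM (the normalised level as the authors deposited it, on a linear scale) in at least 3 of the 8 libraries.

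The data are bulk RNA sequencing of mouse ventral pallidum (VP), a basal forebrain region, from untreated VGluT2-Cre x Rpl22 mice. All animals were homozygous for VGluT2-Cre and heterozygous for Rpl22, so the control fraction carried the same alleles as the tagged one. The Rpl22 allele is the RiboTag, which adds a hemagglutinin (HA) tag to a protein of the large ribosomal subunit in cells with Cre, and here Cre was made under control of the vGluT2 gene Slc17a6. Translating ribosome affinity purification (TRAP) collected mRNA on HA-tagged ribosomes from a lysate, and INPUT was set aside from that lysate before the beads were added. The labels name the cells of TRAP as glutamatergic neurons and those of INPUT as neurons and glia of every kind. There were 4 pools of tissue with 1 library per fraction each, so n = 4 for TRAP and n = 4 for INPUT. VP1.6 pooled 3 male and 4 female mice aged 9 to 12 weeks. The other pools came from mice of 10 to 16 weeks, with 4 males and 6 females in VP2.2, 4 males and 7 females in VP2.6, and 4 males and 6 females in VP2.11. Since each pool mixes animals and both sexes, p-values do not measure the spread between mice. A fit that pairs the libraries of a pool starts from the spread of the 4 pool differences. A fit that leaves them unpaired starts from the spread of libraries within each fraction. In both, limma draws the spread of a gene toward a trend over all tested genes, so an SE is not that of the gene's own libraries alone.

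Endothelial cells line the vessels of the brain and form the blood-brain barrier, and pericytes sit on the outer wall of capillaries. Endothelial cells respond to vascular endothelial growth factor (VEGF) through the receptor kinase encoded by Kdr, while the receptor encoded by Flt1 binds VEGF tightly, signals weakly, and also exists as a soluble form that traps the ligand. Angiopoietins act on the Tie receptors, whose signalling is held down by the phosphatase encoded by Ptprb. Endothelial platelet-derived growth factor (PDGF) recruits pericytes through the receptor encoded by Pdgfrb. None of these genes is a marker of glutamatergic neurons.

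RefSeq promoters (GRCm38.p6) were taken for 6 of the 10 genes. The 250 bases before the start of transcription are shown for both VEGF receptors and for Slco1a4, the genes whose TRAP minus INPUT differences are set against each other below. The 3 genes lie on the minus strand, and the windows are chr5:147726012-147726261 for Flt1, chr5:75978456-75978705 for Kdr and chr6:141856221-141856470 for Slco1a4. Capitals mark GGAA and its reverse complement TTCC, the core bound by ETS factors, a family active in endothelial cells.
Flt1: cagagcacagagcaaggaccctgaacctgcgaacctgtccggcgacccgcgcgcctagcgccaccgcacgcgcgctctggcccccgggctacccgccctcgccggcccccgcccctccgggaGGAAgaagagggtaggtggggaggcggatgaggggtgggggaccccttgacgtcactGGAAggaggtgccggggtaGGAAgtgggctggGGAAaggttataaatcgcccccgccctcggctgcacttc
Kdr: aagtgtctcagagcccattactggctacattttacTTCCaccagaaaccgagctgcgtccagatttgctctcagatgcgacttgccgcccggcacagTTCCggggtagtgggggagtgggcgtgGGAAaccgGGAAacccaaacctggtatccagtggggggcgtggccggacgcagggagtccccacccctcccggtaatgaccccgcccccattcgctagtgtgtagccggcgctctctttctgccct
Slco1a4: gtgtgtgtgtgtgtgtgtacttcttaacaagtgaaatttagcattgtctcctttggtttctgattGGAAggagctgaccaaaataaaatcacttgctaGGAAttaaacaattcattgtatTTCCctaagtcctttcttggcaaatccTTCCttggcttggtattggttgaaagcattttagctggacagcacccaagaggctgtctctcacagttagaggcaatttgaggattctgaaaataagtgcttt
Each of the 3 windows holds 4 matches on both strands together, and matches of this short motif are common. At least 1 is found in 93.5% of 32851 mouse promoters, with a median of 3. The longer CCGGAA, searched on both strands and overlapping GGAA, has 1 match in the Kdr window and 0 in the other windows, against 12.0% of all promoters with a match. The Flt1 window holds 1 TATAAA, found in 12.4% of promoters, and 1 TGACGTCA, a motif equal to its own reverse complement and found in 1.55%. These matches are descriptions of the letters and carry no evidence of binding.

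No vascular gene of the 8 was called lower in TRAP, and 3 were called higher. Flt1, Ptprb and Vwf were higher in TRAP than in INPUT in the fit with the fraction alone (limma, adjusted p under 0.05 over all 14249 genes), which is 3 of 8 against 23.2% of all tested genes called higher. The count of genes lower in limma was 0, against 24.8% of all tested genes called lower. At p under 0.05 before adjustment it was also 0, and 5 were higher. The share of all tested genes at that limit was not taken, so these unadjusted counts have no background beside them. With the pool as a block, which pairs the 2 libraries of a lysate, 3 of 8 were again higher, now Flt1, Ptprb and Slco1a4, against 15.4% of all tested genes, and 0 were lower, against 16.8%. Vwf was over 1 CPM in 3 TRAP and 0 INPUT libraries, so it passed the filter on low values through TRAP alone and could hardly have been called lower. Leaving Vwf aside, 2 of 7 were called higher with the fraction alone. The median log2 fold change (TRAP minus INPUT) was 1.10 over the 8 genes and 0.89 over the 7 without Vwf, and that of all tested genes was -0.05. Both fractions of a pool came from the same lysate. A difference sets RNA collected on the beads, by design from cells with Cre, against RNA of all cells in that lysate. Bulk libraries do not show which cells the reads came from.

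**Figure D1:**
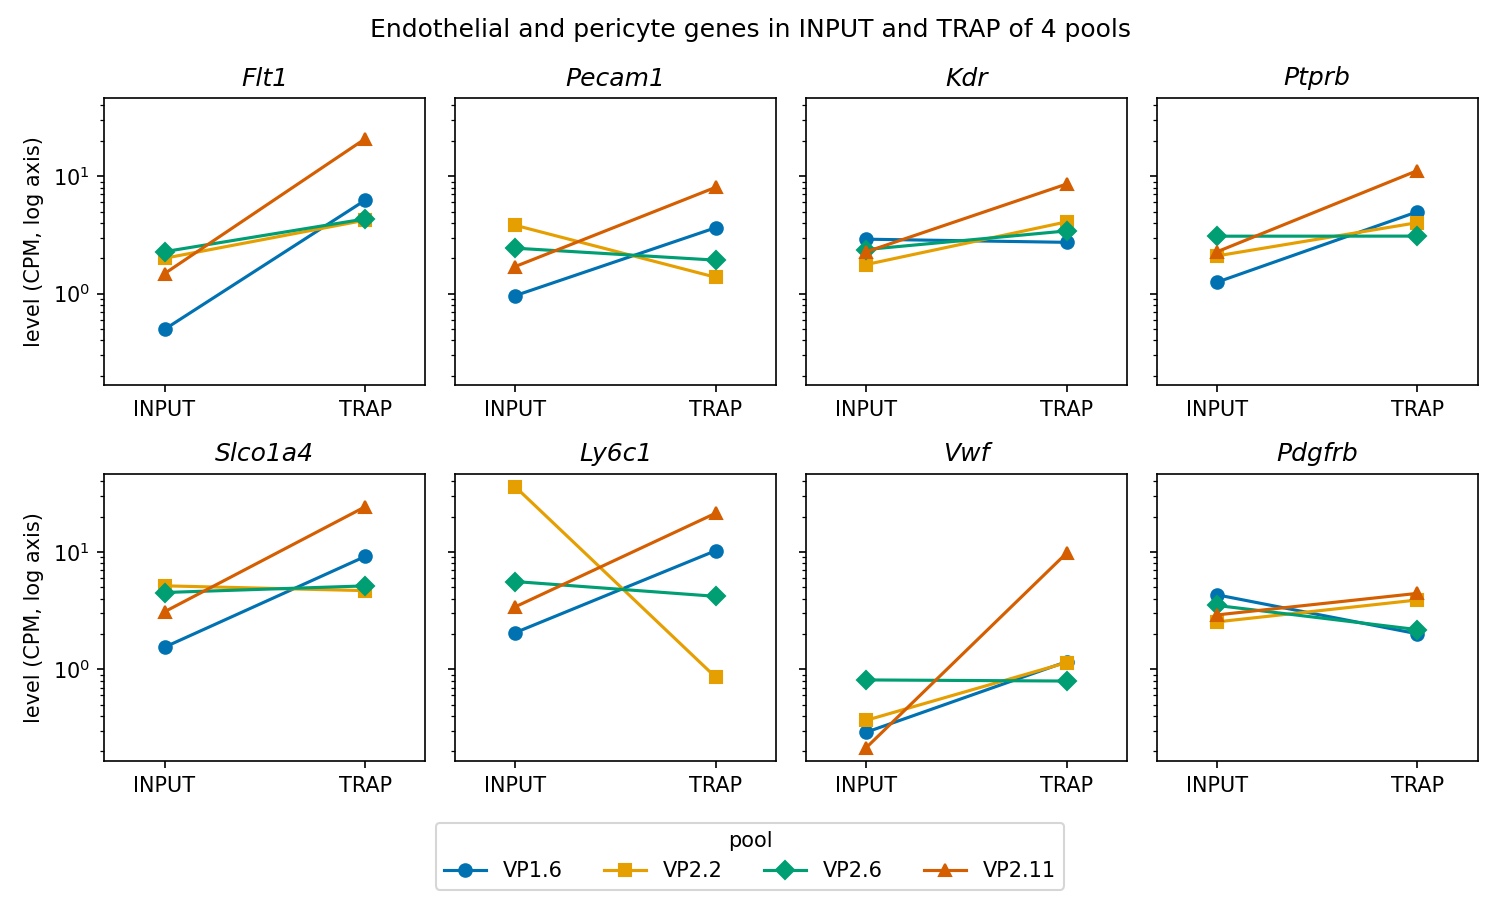
Level of each of the 8 vascular genes (CPM, log axis) in the INPUT and TRAP library of each pool, with a line joining the 2 libraries of a pool. The line of VP2.11 rises in every panel and is steepest for Vwf, while the line of VP2.2 falls steeply for Ly6c1.

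Flt1 (ENSMUSG00000029648, chr5:147561604-147726011, minus strand of GRCm38) had the highest mean TRAP minus INPUT difference of the 8 genes, ahead of Vwf by 0.09 (log2), an order that turned without VP1.6 (1.94 for Flt1 and 2.37 for Vwf) and without VP2.6 (2.85 and 3.05). Values of pools are given in the order VP1.6, then VP2.2, then VP2.6, then VP2.11. In TRAP its level was 6.24, 4.22, 4.33 and 20.8 CPM. In INPUT of the same pools it was 0.497, 2.00, 2.28 and 1.48 CPM. Every TRAP library was above every INPUT library, which was so for 23.3% of all tested genes, while the reverse order was found in 24.4%. The means were 8.90 ± 7.999 CPM in TRAP and 1.56 ± 0.784 CPM in INPUT (SD, n = 4 each). Relative to INPUT of the same pool, the TRAP level was 1257%, 211.0%, 190.2% and 1405%, with a geometric mean of 516.0%. The log2 fold change was 2.37, with an SE of 0.594 in the fit with the fraction alone (adjusted p = 0.00804) and an SE of 0.547 with the pool as a block (adjusted p = 0.00466). Of all tested genes, 0.414% had a larger log2 fold change. An exact two-sided permutation test of the 8 libraries gave p = 0.0286 for Flt1, the smallest that 4 against 4 can give. That test takes the libraries as unpaired, and with 4 pairs of libraries an exact test within pools cannot go below 0.125.

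Kdr (ENSMUSG00000062960, chr5:75932827-75978458, minus strand), the main signalling receptor for VEGF, lies on the same chromosome. Its TRAP levels were 2.73, 4.09, 3.42 and 8.57 CPM, and its INPUT levels were 2.91, 1.77, 2.37 and 2.27 CPM. TRAP was above INPUT in 3 of 4 pools, and the groups overlapped because TRAP of VP1.6 lay below INPUT of VP1.6. The geometric mean of TRAP over INPUT was 185.5%, a log2 fold change of 0.89. The gene did not pass the threshold in the fit with the fraction alone (SE 0.360, adjusted p = 0.0617) or with the block (SE 0.456, adjusted p = 0.148). The exact permutation p, with libraries unpaired, was 0.0571. Without VP1.6 the log2 fold change was 1.22, with an adjusted p of 0.0471 for the fraction alone and 0.113 for the block. Without any other pool it was between 0.55 and 1.01, and neither fit passed the threshold.

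Ptprb (ENSMUSG00000020154, chr10:116275523-116389535, plus strand) encodes the endothelial receptor phosphatase VE-PTP. It stood at 4.98, 4.02, 3.09 and 11.2 CPM in the TRAP libraries and at 1.25, 2.09, 3.08 and 2.27 CPM in INPUT. The groups did not overlap, although the lowest TRAP library and the highest INPUT library, both of VP2.6, were nearly equal. This was a log2 fold change of 1.31, or 247.9% of INPUT, which passed the threshold with the fraction alone (SE 0.419, adjusted p = 0.0251) and with the block (SE 0.469, adjusted p = 0.0448). Without VP2.11 its log2 fold change was 0.98 (adjusted p = 0.0618 with the fraction alone). In that fit it also missed the threshold without VP1.6 (adjusted p = 0.118) and without VP2.2 (adjusted p = 0.0643), and passed it without VP2.6 (adjusted p = 0.0214).

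Slco1a4 (ENSMUSG00000030237, chr6:141805440-141856199, minus strand) encodes an organic anion transporter of the blood-brain barrier. TRAP held 9.15, 4.68, 5.14 and 24.3 CPM and INPUT held 1.55, 5.15, 4.51 and 3.10 CPM. In VP2.2 and VP2.6 the fractions were close, at 91.0% and 114% of INPUT, while in VP1.6 and VP2.11 TRAP reached 592% and 784% of INPUT. Its log2 fold change of 1.397 passed the threshold with the pool as a block (SE 0.496, adjusted p = 0.0429) but not with the fraction alone (SE 0.534, adjusted p = 0.0511). It was 0.87 without VP2.11 (adjusted p = 0.214 with the block) and 1.01 without VP1.6 (adjusted p = 0.182 with the block).

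Vwf (ENSMUSG00000001930, chr6:125546774-125686679, plus strand), von Willebrand factor, is an endothelial glycoprotein of haemostasis and had the lowest level of the 8 genes in INPUT, per kilobase of exon as well. Its TRAP libraries held 1.16, 1.14, 0.796 and 9.78 CPM, and its INPUT libraries 0.291, 0.368, 0.813 and 0.215 CPM. The TRAP library of VP2.11 stood far above the others, while TRAP of VP2.6 was at 97.8% of its INPUT. With a log2 fold change of 2.28, Vwf was past the threshold with the fraction alone (SE 0.792, adjusted p = 0.0355) and not with the block (SE 0.918, adjusted p = 0.0705). Without VP2.11 it was 1.20 (adjusted p = 0.0989 with the fraction alone). In that fit Vwf also missed the threshold without VP1.6 (adjusted p = 0.0958) and without VP2.2 (adjusted p = 0.0812), and passed it without VP2.6 (adjusted p = 0.0303). Its call is read with the filter in mind, since 0 of its INPUT libraries were over 1 CPM. With no filter on low values its adjusted p was 0.0357. By the methods the authors had already left out genes of low level, and this setting holds 14353 genes against 14249. It therefore does not lift that limit.

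Pecam1 (ENSMUSG00000020717, chr11:106654217-106750628, minus strand), the adhesion molecule CD31 of endothelial junctions, was higher in TRAP in 2 of 4 pools. Its levels were 3.65, 1.38, 1.93 and 8.06 CPM in TRAP and 0.962, 3.82, 2.44 and 1.70 CPM in INPUT. TRAP was thus at 379% and 473% of INPUT in VP1.6 and VP2.11, and at 36.0% and 79.1% in VP2.2 and VP2.6. Its mean log2 fold change, 0.59, was within the spread of the pools (SE 0.578, adjusted p = 0.420 with the fraction alone, and SE 0.610, adjusted p = 0.488 with the block). The log2 fold change was 0.04 without VP2.11, 0.14 without VP1.6 and 1.28 without VP2.2, and none of these passed the threshold. The exact permutation p, with libraries unpaired, was 0.429.

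Ly6c1 (ENSMUSG00000079018, chr15:75044018-75048830, minus strand) encodes a membrane-anchored Ly6 protein of brain endothelium and has a close paralog, Ly6c2, so its reads are less certain than those of the other genes. TRAP held 10.3, 0.854, 4.19 and 21.4 CPM and INPUT held 2.06, 35.9, 5.60 and 3.41 CPM. The INPUT library of VP2.2 was the highest of the 8 and the TRAP library of VP2.2 the lowest. TRAP was at 499% and 628% of INPUT in VP1.6 and VP2.11, but at 2.38% in VP2.2. The log2 fold change of -0.21 (SE 1.03, adjusted p = 0.879 with the fraction alone, and SE 0.904, adjusted p = 0.881 with the block) rests on that pool, and without VP2.2 it was 1.52 (adjusted p = 0.0792 with the fraction alone).

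Pdgfrb (ENSMUSG00000024620, chr18:61045150-61085061, plus strand), the pericyte receptor, was at 2.01, 3.90, 2.18 and 4.44 CPM in TRAP and at 4.32, 2.54, 3.50 and 2.91 CPM in INPUT. TRAP was higher in VP2.2 and VP2.11 and lower in VP1.6 and VP2.6. Its log2 fold change was -0.14 (SE 0.329, adjusted p = 0.747 with the fraction alone, and SE 0.459, adjusted p = 0.843 with the block), a mean difference smaller than the SD of its 4 pool differences (0.888).

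**Figure D2:**
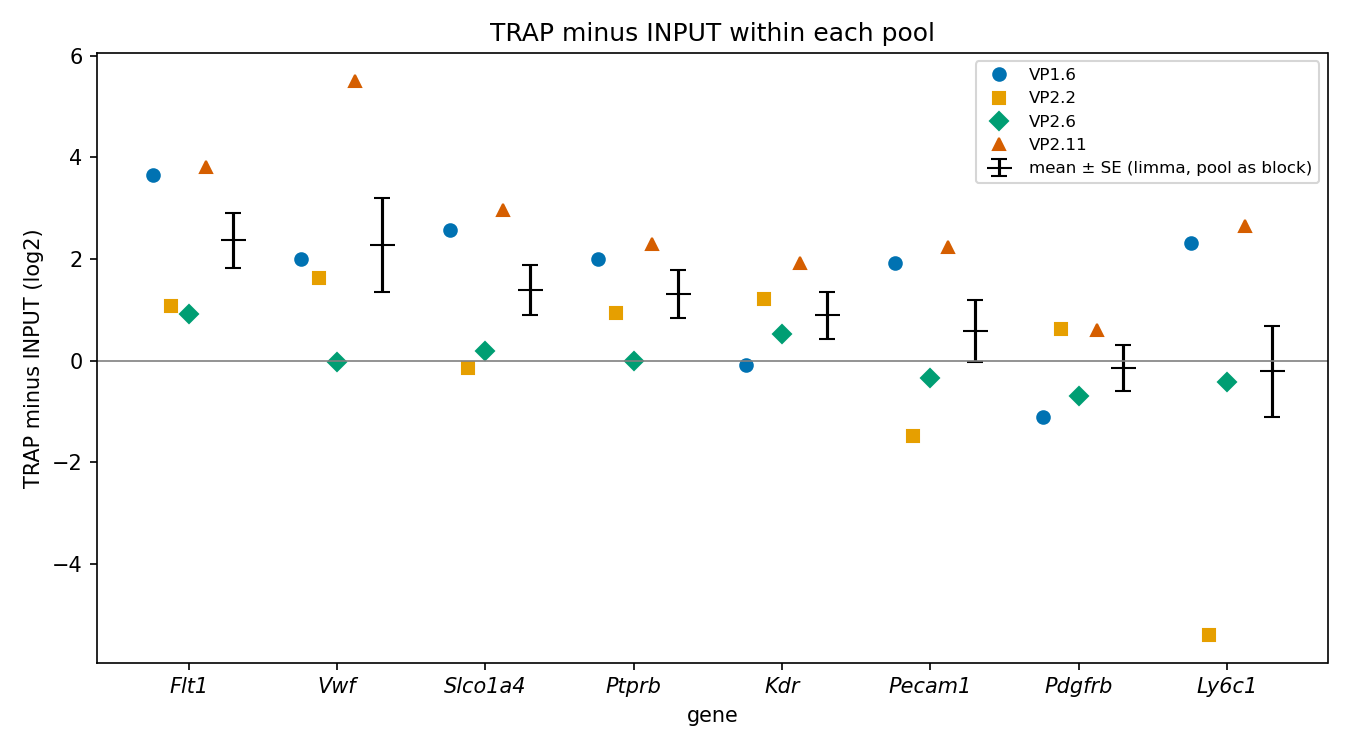
TRAP minus INPUT (log2) of each vascular gene in each pool, with the mean and its SE from limma with the pool as a block. Circles (VP1.6) and triangles (VP2.11) lie above squares (VP2.2) and diamonds (VP2.6) in 6 of the 8 genes, and the lowest point is Ly6c1 in VP2.2 at -5.39.

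The pools did not differ in the same way for all genes. VP1.6 and VP2.11 had the highest TRAP minus INPUT differences in 6 of the 8 vascular genes, the exceptions being Kdr and Pdgfrb. This order was found in 11.3% of all tested genes, in 13.5% of the 5394 tested genes with a mean level of 1 to 10 CPM, in 11 of 27 other endothelial genes and in 3 of 17 other mural genes. VP2.11 was the highest pool in 7 of the 8 vascular genes, against 26.9% of all tested genes, 34.4% of those of 1 to 10 CPM, 37.0% of other endothelial and 52.9% of other mural genes. The median difference of the 8 genes was 2.00 in VP1.6, 0.78 in VP2.2, -0.01 in VP2.6 and 2.48 in VP2.11 (log2), while the median of all tested genes stayed between -0.04 and -0.01 in every pool. The SD of the 4 pool differences had a median of 1.59 over the vascular genes (range 0.867 to 3.72), against 0.570 over all tested genes, 0.843 over those of 1 to 10 CPM, 0.932 over other endothelial genes and 1.38 over other mural genes. The lowest SD was that of Kdr and the highest that of Ly6c1. Because limma draws a gene's spread toward that of all tested genes, its SE can be smaller than the gene's own pools give. VP1.6 and VP2.11 are also the pools with values rounded to 3 significant digits in the files (INPUT of VP1.6 and both libraries of VP2.11), and the part of any step behind that rounding was not tested.

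Flt1 was then set against each other vascular gene within the pools, as the TRAP minus INPUT difference of Flt1 less that of the other gene. With 4 pools an exact sign-flip test cannot go below p = 0.125, so none of the 7 pairs could pass the threshold. Slco1a4 followed Flt1 most evenly. Flt1 exceeded it by 1.09, 1.21, 0.74 and 0.84, a mean of 0.97 ± 0.218 (SD, n = 4, exact two-sided sign-flip p = 0.125, adjusted p = 0.175 over 7 pairs). Against Pecam1 the excess was 1.73, 2.55, 1.27 and 1.57, a mean of 1.78 ± 0.549. These excesses were therefore steadier over the pools than the difference of either gene alone, whose SDs were 1.58 for Flt1, 1.597 for Slco1a4 and 1.79 for Pecam1. The same held for Ptprb and Vwf, while the excesses over Kdr, Ly6c1 and Pdgfrb had SDs above that of Flt1 alone.

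Flt1 also lay above Ptprb in 4 of 4 pools (mean 1.06 ± 0.692), above Ly6c1 in 4 of 4 (2.58 ± 2.596) and above Pdgfrb in 4 of 4 (2.51 ± 1.87), each with the exact p of 0.125 and an adjusted p of 0.175. The excess over Ly6c1 was 1.33, 6.47, 1.35 and 1.16, so that its mean rests on VP2.2 and was 1.28 without it. Against Kdr, the other VEGF receptor, the excess was 3.74, -0.13, 0.40 and 1.89, so that the receptors were near each other in VP2.2 and VP2.6 and far apart in VP1.6 (mean 1.48 ± 1.74, 3 of 4 pools, exact p = 0.25, adjusted p = 0.292). Vwf did not differ from Flt1 in a steady direction (mean 0.09 ± 1.51, 2 of 4 pools, exact p = 1.0).

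Steps of whole reads in the differences gave the depth of 2 pools. Effective library sizes were 13 M reads in TRAP and 39.1 M in INPUT of VP2.2, and 12.4 M and 24.6 M in VP2.6. The depth of VP1.6 and VP2.11 is unknown, because rounding hides the steps. In VP2.2, Flt1 rested on 48 reads in TRAP and 69 in INPUT, which gives a 95% counting interval (Clopper-Pearson) of 0.51 to 1.63 for its log2 difference. In VP2.6 it rested on 67 and 70 reads, with an interval of 0.42 to 1.43. Both intervals lay on the side of higher TRAP for these read pairs. A smaller pair of reads gives the same difference in VP2.6 and would have a wider interval, so the reach of that interval is uncertain.

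The interval of Ptprb lay above 0 in VP2.2 (50 and 79 reads, 0.40 to 1.47) and held 0 in VP2.6 (30 and 60 reads, -0.69 to 0.65). Vwf did the same, with 38 and 37 reads in VP2.2 (0.94 to 2.33) and 16 and 33 in VP2.6 (-1.01 to 0.85), and so did Kdr, with 87 and 114 reads in VP2.2 (0.79 to 1.62) and 47 and 65 in VP2.6 (-0.05 to 1.09). For Slco1a4 the intervals held 0 in both pools, with 77 and 257 reads in VP2.2 (-0.53 to 0.23) and 68 and 119 in VP2.6 (-0.27 to 0.62). The interval of Pecam1 lay below 0 in VP2.2 (11 and 96 reads, -2.58 to -0.63) and held 0 in VP2.6 (20 and 51 reads, -1.18 to 0.41).

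Pdgfrb had its interval on the side of higher TRAP in VP2.2 (76 and 150 reads, 0.20 to 1.02) and of lower TRAP in VP2.6 (36 and 116 reads, -1.28 to -0.15). Ly6c1 in VP2.2 had 11 reads in TRAP and 1460 in INPUT (-6.46 to -4.61), and in VP2.6 it had 40 and 107 (-0.99 to 0.11). The intervals cover counting error only, and PCR copies are not told apart from independent molecules. The read pairs are those nearest the deposited levels among pairs that give the same difference, and a smaller such pair would have a wider interval. The levels themselves departed from reads per M by a factor shared by both libraries of a pool, the farthest being Vwf in VP2.2, with 2.92 reads per M against a deposited 1.14 CPM in TRAP and 0.946 against 0.368 in INPUT. Differences within a pool do not carry that factor.

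**Figure D3:**
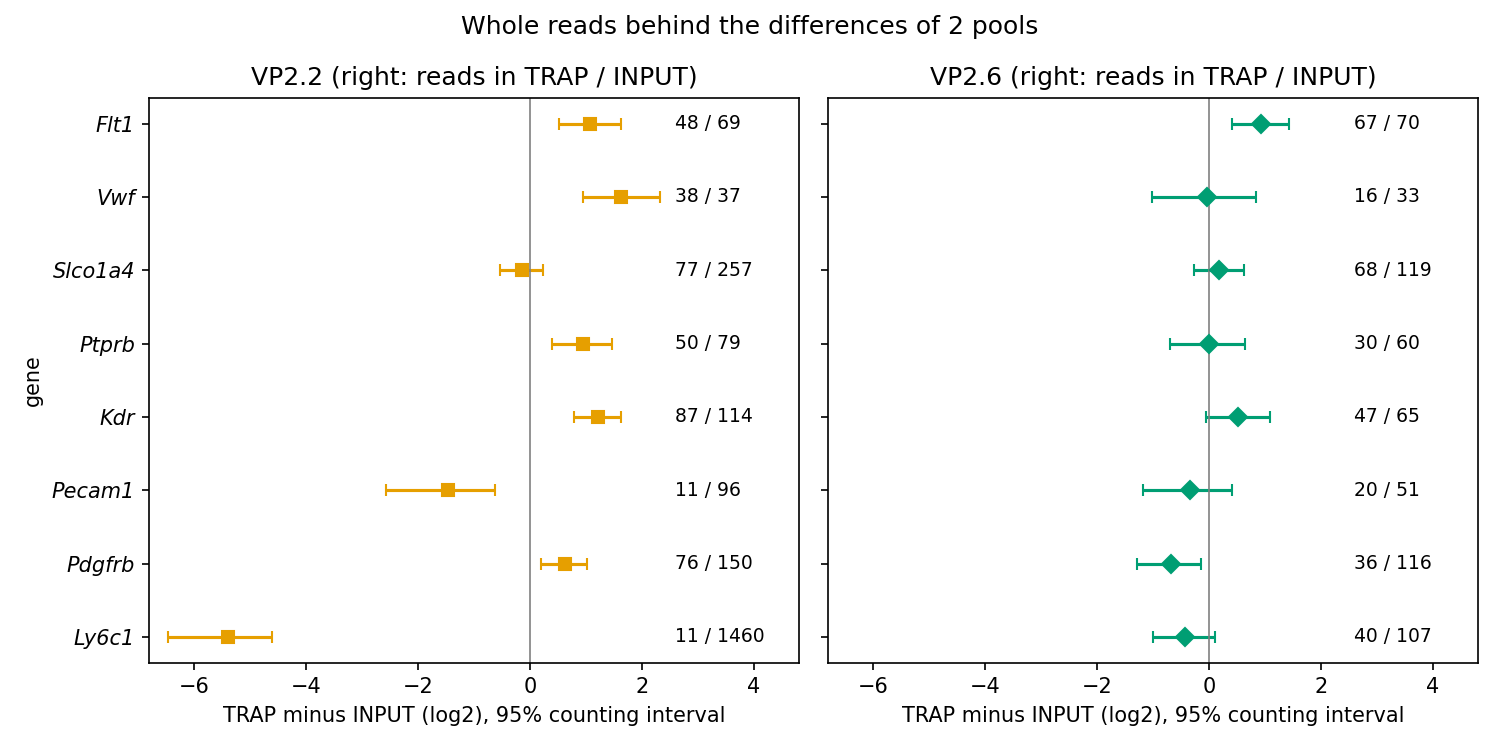
TRAP minus INPUT (log2) of each vascular gene in VP2.2 and VP2.6, with 95% counting intervals and, at the right, the whole reads behind TRAP and INPUT. The intervals of Flt1 lie above 0 in both pools, and that of Ly6c1 in VP2.2 ends at -4.61.

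Levels between genes were compared per kilobase of exon. The order is that of the deposited levels, which carry the factor described for VP2.2 and VP2.6, and that factor differs between genes. In INPUT, Ly6c1 was highest at 7.00 ± 9.63 CPM per kb, a mean that rests on VP2.2 (35.9 CPM, against 2.06 to 5.60 in the others). It was followed by Pdgfrb at 0.605 ± 0.142, Slco1a4 at 0.558 ± 0.250 and Pecam1 at 0.358 ± 0.196 CPM per kb. Kdr (0.258 ± 0.0518), Ptprb (0.163 ± 0.0564), Flt1 (0.116 ± 0.0581) and Vwf (0.0263 ± 0.0167 CPM per kb) came last (SD, n = 4 each). The order of Pdgfrb, Slco1a4 and Pecam1 lies within their spread. In TRAP, Ly6c1 was at 5.47 ± 5.39 and Slco1a4 at 1.69 ± 1.43 CPM per kb. Flt1 came next at 0.659 ± 0.592 CPM per kb, with Pecam1 at 0.602 ± 0.486, Pdgfrb at 0.572 ± 0.223, Kdr at 0.521 ± 0.292 and Ptprb at 0.436 ± 0.274, all within each other's spread, and Vwf was last at 0.201 ± 0.273.

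Exon length moved with the TRAP minus INPUT difference in these libraries. The Spearman correlation of the log2 fold change with exon length over the tested genes was 0.412, as a description. Flt1 (13504 bases), Ptprb (13333 bases) and Vwf (16064 bases) are among the longest tested genes, at percentiles 96.1, 96.0 and 97.9, and the 10% of genes with the longest exons had a median log2 fold change of 0.49. Ly6c1, with 1677 bases, lay at percentile 14.6, and the 10% of genes around it had a median of -0.52. With a smooth trend on exon length removed in each pool and the pool as a block, the log2 fold change of Flt1 was 1.87 (adjusted p = 0.0172), while Ptprb was at 0.82 (adjusted p = 0.186), Vwf at 1.71 (adjusted p = 0.164) and Slco1a4 at 1.24 (adjusted p = 0.0645). Why length and the difference moved together was not tested.

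Of the VEGF pathway, 7 of 10 genes have a row, with 3 called higher and 2 lower in both fits, against 23.2% and 24.8% of all tested genes with the fraction alone and 15.4% and 16.8% with the block. Flt1 and the co-receptors Nrp1 and Nrp2 were higher in TRAP in both fits, and the ligands Vegfb and Pgf were lower in both. Nrp1 rose from 14.2 ± 4.51 to 33.3 ± 4.48 CPM (log2 fold change 1.28, adjusted p = 0.00176 with the fraction alone) and Nrp2 from 15.8 ± 5.83 to 47.2 ± 6.62 CPM (1.64, adjusted p = 0.000443). Neuropilins are also receptors for semaphorins in neurons. Pgf fell from 8.81 ± 1.404 CPM in INPUT to 2.79 ± 0.687 CPM in TRAP (-1.68, adjusted p = 0.000427), and Vegfb from 8.85 ± 1.48 to 3.75 ± 1.61 CPM (-1.31, adjusted p = 0.00374). Vegfa, the ligand of both Flt1 and Kdr, was at 2.92 ± 0.419 CPM in INPUT and 2.88 ± 0.691 CPM in TRAP (-0.04, adjusted p = 0.911). Vegfc, Vegfd and Flt4 were not analysed here.

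Of the angiopoietin pathway, 3 of 7 genes have a row. Angpt1, the ligand that activates Tie2, was at 5.48 ± 1.09 CPM in TRAP and 2.99 ± 0.547 CPM in INPUT (log2 fold change 0.87), with a limma adjusted p of 0.0146 for the fraction alone and 0.101 for the block. Svep1, a large extracellular matrix protein, was at 3.36, 5.99, 6.86 and 54.95 CPM in TRAP and at 6.45, 0.312, 0.292 and 0.302 CPM in INPUT. It was thus lower in TRAP in VP1.6 and far higher in the other pools (3.85, adjusted p = 0.0146 with the fraction alone and 0.00556 with the block). Svep1 was over 1 CPM in 4 TRAP and 1 INPUT libraries. It passed the filter through TRAP alone and could hardly have been called lower.

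All 6 genes of the PDGF pathway have a row, and none passed the threshold with the pool as a block in limma. This is 0 of 6 against 15.4% of all tested genes higher and 16.8% lower (1 of 6, Pdgfa, at p under 0.05 before adjustment). With the fraction alone it was 1 of 6, against 23.2% higher and 24.8% lower. Counts of so few genes are not read against these shares. The fit with the fraction alone called Pdgfa lower, at 17.0 ± 2.18 CPM in TRAP and 24.8 ± 3.15 CPM in INPUT (log2 fold change -0.54, adjusted p = 0.0152, and 0.112 with the block). Pdgfb, the endothelial ligand of the pericyte receptor, was at 7.47 ± 1.44 and 8.33 ± 1.11 CPM (-0.16). Pdgfc stood at -0.78 and Pdgfd at 0.08, and Pdgfra, a receptor of oligodendrocyte precursors and fibroblasts, at -0.28.

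Beyond the 8 genes, 44 other endothelial genes were sought, of which 28 have a row and 27 were tested. With the fraction alone, 7 of 27 were higher and 3 of 27 lower in TRAP (all tested genes 23.2% and 24.8%), and with the block 4 and 1 (all tested genes 15.4% and 16.8%). The higher calls were thus near the share of all tested genes, and the median log2 fold change was 0.32. Among those with at least 2 CPM in INPUT, the largest log2 fold changes were those of the transferrin receptor Tfrc (1.07, adjusted p = 0.00357), the Wnt effector Lef1 (1.01, adjusted p = 0.0172) and the efflux pump Abcg2 (0.86, adjusted p = 0.00434), all higher in 4 of 4 pools. Lef1 did not pass with the block (adjusted p = 0.0600). The smallest were Rgcc (-2.87, adjusted p = 0.00256), Plvap of fenestrated endothelium (-1.04, adjusted p = 0.0146, and 0.0662 with the block) and the barrier transporter Slc22a8 (-1.003, adjusted p = 0.0566). The remaining genes called by the fraction alone were Abcb1a, Slc2a1, Tjp1 and Adgrf5 (higher) and Ecscr (lower). Abcb1a was over 1 CPM in 4 TRAP and 2 INPUT libraries and so passed the filter through TRAP alone. The lower genes Rgcc and Ecscr passed it through INPUT alone and could hardly have been called higher. Adgrf5, an adhesion receptor whose row was singled out after its values were seen, had a log2 fold change of 2.80, higher than that of Flt1. Its TRAP libraries held 3.16, 3.42, 3.51 and 24.4 CPM and its INPUT libraries 0.779, 0.768, 0.971 and 0.676 CPM, higher in TRAP in 4 of 4 pools (adjusted p = 0.00354 with the fraction alone and 0.00314 with the block). Like Vwf, it was over 1 CPM in 0 INPUT libraries and passed the filter through TRAP alone. Tfrc, Tjp1 and Slc2a1 are not limited to endothelium. The defining endothelial markers Cldn5, Eng and Erg were not analysed here.

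Pericyte and smooth muscle genes other than Pdgfrb had 17 of 25 with a row, with 3 higher and 5 lower in both fits and a median of -0.39. These counts of 17 stand against 23.2% of all tested genes higher and 24.8% lower with the fraction alone, and 15.4% and 16.8% with the block. Of the 8 calls, 1 higher and 4 lower were of genes over 1 CPM in fewer than 3 libraries of the other fraction. Cspg4, the proteoglycan NG2 of pericytes and oligodendrocyte precursors, rose from 5.31 ± 2.27 to 20.0 ± 6.12 CPM (1.98, adjusted p = 0.00139), and Cald1 from 20.0 ± 3.71 to 35.5 ± 6.18 CPM (0.83, adjusted p = 0.00427). Mcam came next among genes with at least 2 CPM in INPUT (-0.06, adjusted p = 0.946). The pericyte gene Higd1b (-3.89, adjusted p = 0.00341) and the contractile genes Tagln (-3.42, adjusted p = 0.00102) and Myl9 (-3.21, adjusted p = 0.000245) fell the most. The calls on Cnn1 (higher) and on Acta2 and Ifitm1 (lower) complete the 8.

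Of 12 fibroblast genes sought, 11 have a row. In limma 0 were higher in both fits, against 23.2% of all tested genes with the fraction alone and 15.4% with the block. Before adjustment at 0.05 it was also 0, a limit at which the share of all tested genes was not taken. In both fits 5 of 11 were lower, against 24.8% of all tested genes with the fraction alone and 16.8% with the block, and the median was -0.95. The log2 fold changes of Col3a1 and Lama1 were above 0 (0.51 and 0.35) and did not pass the threshold. Igf2 (-3.11, adjusted p = 0.000637), the GABA transporter Slc6a13 of meningeal cells (-3.03, adjusted p = 0.000108) and the collagen gene Col1a2 (-2.72, adjusted p = 0.000161) were the lowest among those with at least 2 CPM in INPUT. Pdgfra (-0.28), Aebp1 (-0.83) and Dcn (-0.95) were the highest of that set and did not pass the threshold. Col1a1 and Bgn were the other lower calls. Slc6a13 was over 1 CPM in 2 TRAP and 4 INPUT libraries, so it passed the filter through INPUT alone and could hardly have been called higher. Per pool, the median difference of the fibroblast genes was -2.62 in VP1.6, -0.92 in VP2.2, -1.43 in VP2.6 and 0.01 in VP2.11.

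**Figure D4:**
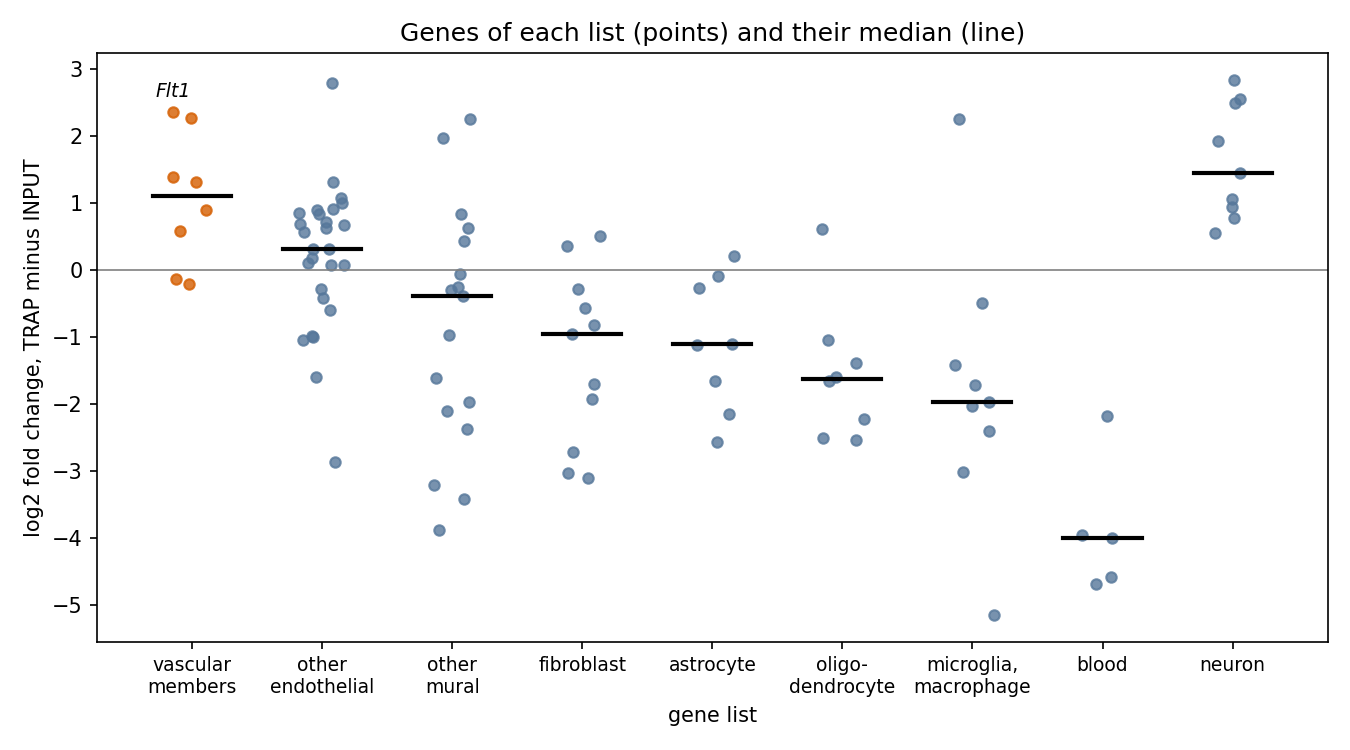
Log2 fold change, TRAP minus INPUT, of the tested genes of each list (points, spread sideways at random) with the median of each list (line). The 8 vascular genes have a median of 1.10, below that of the neuronal genes (1.45) and above those of the other lists shown, from 0.32 for other endothelial genes to -4.00 for blood genes.

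Genes of other cells gave these values in the same libraries. The 9 neuronal markers were higher in TRAP with the fraction alone (8 of 9 with the block), and Slc17a6, which encodes vGluT2, was at 143 ± 13.6 CPM in TRAP and 25.9 ± 10.3 CPM in INPUT. Lower in TRAP with the fraction alone were 5 of 8 astrocyte markers (median -1.11), 7 of 8 oligodendrocyte markers (-1.62), 8 of 9 microglia and macrophage markers (-1.97), 3 of 5 choroid plexus and ependymal markers (-1.61) and 5 of 5 blood markers (-4.00), with Mag and Mrc1 as the higher ones. With the block the lower counts were 5, 7, 5, 2 and 5 in the same order, and Mrc1 was called higher while Mag was not (adjusted p = 0.0719). These counts stand against 23.2% of all tested genes higher and 24.8% lower with the fraction alone, and 15.4% and 16.8% with the block. Of the lower calls with the fraction alone, 4 of microglia and macrophages and 1 of choroid plexus passed the filter on low values through INPUT alone. Those genes could hardly have been called higher. Mrc1, over 1 CPM in 4 TRAP and 1 INPUT libraries, passed through TRAP alone. The summed blood markers ranged from 51.6 to 77.9 CPM in TRAP and from 615 to 2274 CPM in INPUT, and none was at 0. The summed levels of the 8 vascular genes ranged from 24.3 to 109 CPM in TRAP and from 13.8 to 53.6 CPM in INPUT. The highest INPUT sum, that of VP2.2, rests mostly on Ly6c1 (35.9 CPM). Blood markers were thus far lower in every TRAP library, unlike the summed vascular genes. The part of glial, fibroblast or blood RNA in the values of the vascular genes was not tested.

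Among the 5 genes closest to Flt1 over the 8 libraries, by the Euclidean distance of centred log2 levels, were Emx1 (distance 0.438, r = 0.999), Blm (1.34, r = 0.960), Capn6 (1.39, r = 0.965) and Tph1 (1.45, r = 0.965). Slco1a4 was the 8th closest of all tested genes (1.499), with Ptprb 27th and Vwf 40th, while Pecam1 was 374th, Kdr 1335th, Pdgfrb 7595th and Ly6c1 9675th. The closest to Pecam1 were Pidd1 (0.698), Mindy4b-ps (0.775), Trim67 (0.932), Fen1 (0.939) and Blnk (0.941), and Slco1a4 was the 19th. These distances rest on 8 libraries of 2 fractions, which all genes share, and are given as descriptions.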

How the data were processed

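RNA from 4 pools of VP tissue was sequenced as TRAP and INPUT. The methods describe INPUT as lysate taken before the beads, but also name an unbound fraction as sequenced. Per the labels, tools were STAR 2.5.1a and limma. By the methods, the authors aligned reads to an Ensembl mouse assembly, counted unique reads per gene with featureCounts, scaled them by TMM in edgeR and fitted limma with voom and quality weights. The values the authors deposited are log2 CPM per gene and library. Their own fold changes, limits, statistics and p-values, and a transcript count, are also in the table and were not used. The table has 14398 entries, and 45 repeats of a gene were dropped.

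TRAP was compared with INPUT in limma 3.58.1 (R 4.3.3; lmFit, eBayes with a trend) on genes over 1 CPM in at least 3 libraries, with Benjamini-Hochberg adjustment over all of them and a threshold of 0.05. Fraction was the only term, and values from a second model, with pool blocked, are given beside it. Pools pair the libraries because both came from 1 lysate. Same-pool deviations from the group means correlated at -0.745 to -0.495, those of different pools at 0.0457 to 0.441. With deviations opposed in a pool, TRAP minus INPUT spreads more than the unpaired fit takes it to, so that its p-values can be too small. Both fits were run on simulated data with known changes. A limit on the share of unchanged genes with p under 0.05 was set for the fit with the block only. Positions and exon lengths came from the GENCODE annotation of GRCm38 and promoters from RefSeq.

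Whole reads were sought in the within-pool differences. In VP2.2 95.5% and in VP2.6 99.1% of low genes matched a ratio of whole reads within 3e-09 on the log2 scale (93.3% and 97.8% for the next best ratio of library sizes). Among pairs that give the same difference, the pair nearest the deposited levels was taken. No count test was run, because single libraries did not give whole reads.

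The genes and lists were chosen with earlier results of these data known. Named were all genes of the VEGF, angiopoietin and PDGF lists, the 3 highest and 3 lowest log2 fold changes of the endothelial, mural and fibroblast lists at 2 CPM or more in INPUT, and the 5 genes nearest Flt1 and Pecam1, of which 1 is not reported here. Other genes, such as those completing a count of calls, and Slc17a6, were singled out after their values were seen. Alternatives were the pool block, array weights, no filter, log2(CPM + 1), equal medians, an exon length trend, a fold limit and leaving out each pool.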

Additional observations from a re-analysis of the deposited data

Results flagged for a closer look

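In 5 cases a single library stood out among 74 groups of 4 libraries (37 named genes in TRAP and in INPUT), where chance gives about 3.7. In each, the gap between the highest or the lowest library and its nearest neighbour took up more of the group's range than Dixon's 95% limit for 4 values. Vwf in TRAP of VP2.11 stood at 3.29 log2 CPM, with the other TRAP libraries between -0.33 and 0.22. Svep1 in INPUT of VP1.6 stood at 2.69, with the others between -1.78 and -1.68, and this is the pool in which TRAP was lower than INPUT. Pdgfb in TRAP of VP2.6 stood at 3.27, with the others between 2.73 and 2.78. Lef1 in INPUT of VP1.6 was low, at 0.92, with the others between 1.95 and 2.12. Higd1b in INPUT of VP2.2 stood at 4.07, with the others between 1.92 and 2.07. The cause of these values was not tested.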

How the results depend on the processing

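Over 15 alternatives, Flt1 was higher in TRAP each time, with log2 fold changes of 1.73 to 2.85 and limma adjusted p from 0.00107 to 0.0409. The other vascular calls moved. The count of members called higher (3) was 1 with array weights, 5 with library medians set equal, 1 with the exon length trend removed and the pool as a block, and 1 to 4 with a pool left out. It was 1 without VP2.11 in both fits, and 1 without VP1.6 with the block. Ptprb was called in 6 of the 15, Slco1a4 in 6, Vwf in 4 and Kdr in 2, and Pecam1, Ly6c1 and Pdgfrb in 0 (adjusted p at least 0.0611). No alternative called a member lower. With array weights Vwf was at 1.08. The log2 fold change of Ly6c1 turned to 0.20 with array weights, 0.47 with array weights and the block, and 0.38 with the exon length trend removed and the block, and ranged from -1.16 to 1.52 with a pool left out. That of Pdgfrb ranged from -0.39 to 0.18, and the excess of Flt1 over Vwf from -0.43 to 0.69, with a pool left out. Over all genes, 6830 were called, 4592 with the replicate block, 3528 when a change of 1 or more in either direction (log2) was also required, and 3232 to 6894 with a pool left out. Leaving out a pool with the block kept, and counting members higher, were added after seeing the data. The cause of these moves was not tested. Depth limits the calls on genes with few reads and is unknown in VP1.6 and VP2.11.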
